A study of Xenopus laevis with 4 samples.

Results

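Frizzled receptors, secreted Frizzled-related proteins (sFRPs) and Frzb were followed in whole Xenopus laevis gastrulae. The members were all probe sets assigned to 1 gene whose symbol begins with fzd or sfrp and a number, or with frzb, and whose signal averaged at least 100 over the arrays. The rule gave 14 probe sets of 9 genes, 5 of them receptor genes and 4 genes of secreted antagonists, out of 15611 probe sets on the array. In all, 23 probe sets of 16 family genes were present, and 9 of these probe sets fell below the signal limit. The last member inside the limit was a fzd7.L probe set with a mean signal of 120.8, and the first outside was one of frzb2.L with 89.8. The RefSeq table lists 28 genes of this family, and the other 12 were not analysed here.

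Embryos received, at the 4-cell stage, either 40 ng of each of 2 morpholinos against xSGK1 or 80 ng of a control morpholino, injected radially, and were grown to stage 12. Morpholinos are antisense oligonucleotides that block translation or splicing of a transcript, and SGK1 is a protein kinase that acts downstream of PI3K. Total RNA of whole embryos was read on 4 one-colour Affymetrix arrays, 1 per injection in each of 2 experiments that the submitters describe as independent (n = 2 per injection). The study set out to find genes regulated by SGK1 in development. The number in each array's title was read as its experiment.

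Frizzled proteins are multi-pass membrane receptors that bind WNT ligands through an extracellular cysteine-rich domain. With the coreceptors LRP5 and LRP6 they act through Dishevelled to stabilise beta-catenin, and without them they feed into planar polarity and calcium routes that steer cell movement. sFRPs and Frzb carry a similar cysteine-rich domain but no membrane part, and bind WNTs outside the cell. In the Xenopus gastrula the ventral and lateral mesoderm makes WNT8, whereas the organizer makes Frzb and other antagonists.

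Signals are the deposited intensities scaled to a trimmed mean of 500 per array, so they are relative and carry no unit. Levels of different probe sets are not compared with each other, since probes differ in brightness. A log2 difference is xSGK1 minus control morpholino on the scale log2(signal + 16), which understates the change of dim probe sets. A change was called where limma's adjusted p, over all 9251 probe sets tested, was under 0.05 with the experiment as a block. That fit called 8.00% of probe sets, 3.91% lower and 4.09% higher in xSGK1 embryos. Without the block limma called 0 (0.00%), at a smallest adjusted p of 0.999, although the unadjusted p was under 0.05 for 334 (3.61%). Each call below therefore holds with the block and not without it, where the members' adjusted p was 0.999 throughout. With 2 arrays a group, the smallest two-sided p of an exact permutation test is 0.333. The target transcript sgk1.L measured 3070.6 and 3300.3 in the xSGK1 arrays of experiments 1 and 2, against 2320.9 and 2839.3 in the controls. A morpholino need not lower its transcript, so this does not check the knockdown.

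Gastrula markers were checked by their mean signal over the 4 arrays, and no detection calls were used. All 7 mesodermal, all 8 ectodermal and all 4 neural plate marker genes on the array averaged at least 100, as did 6 of 8 organizer and 8 of 10 endodermal genes. None of 11 genes of later tissues (globin, insulin, heart, lens and others) exceeded a mean of 33.2. The summed signal of the ectodermal genes was 12332 and 7726 in the xSGK1 arrays of experiments 1 and 2, against 16273 and 13884 in the controls. That of the endodermal genes was 7245 and 6598 with the xSGK1 morpholinos, against 9370 and 8866 with the control. For these 2 lists the groups did not overlap, though bright genes weigh most in a sum. The separation rested on krt12.4.L and krt12.4.S in the ectodermal list and on a2m.S in the endodermal one. Without these genes the groups of both lists overlapped. krt12.4.L read 1402.1 and 75.4 in xSGK1 arrays, against 3922.3 and 974.2 in controls, and a2m.S 2029.8 and 1686.5, against 4224.8 and 2804.4. Within the ectodermal list every gene except tfap2a.L and sox11.S was lower in both experiments. Of the endodermal genes averaging at least 100, a2m.S, gata6.L, sox17a.L and sox17a.S were lower in both experiments, and mixer.L and mixer.S higher. The gata4.L and gata4.S signals were lower in experiment 2 alone. The neural plate sum was 4763 and 2970 with the xSGK1 morpholinos, against 4161 and 4407 with the control, and the organizer sum was 3621 and 2858, against 2784 and 3731. The mesodermal sum was 15598 and 15404, against 13275 and 16726. These last 3 sums were higher than control in experiment 1 and lower in experiment 2. Of all markers, krt12.4.L, krt12.4.S, a2m.S, msgn1.L, tbx6.L and foxf1.L were called lower with the block (limma adjusted p = 0.0241 to 0.0336). Of these, foxf1.L passed the signal limit only through the controls, with a mean of 188.4 there and 85.3 in xSGK1 embryos. No marker was called higher. Over all probe sets, 3.91% were called lower and 4.09% higher. The mesodermal vegt.L and vegt.S were higher with the xSGK1 morpholinos in both experiments. So were the organizer genes lhx1.L and foxa4.S, whereas gsc.S was lower in both. In experiment 2 foxa4.S was nearly level, at 617.8 against 616.2 in the control. The organizer genes cer1.S, foxa4.L and nog.L were lower in experiment 2 alone. lhx1.L read 294.0 and 235.5 in xSGK1 arrays, against 164.7 and 135.6 in controls (limma adjusted p = 0.0537 with the block). In whole embryos, fewer cells of a type and less RNA per cell cannot be told apart, and the part of these markers in the results below was not tested.

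Most members stood lower in xSGK1 embryos. Of the 14 probe sets, 11 (78.6%) were lower than control in both experiments and 1 was higher in both, against 31.9% and 40.8% of all probe sets tested. In 8 of them (57.1%) both xSGK1 arrays lay below both controls, and in 1 both lay above, against 13.8% and 16.3% of all. With the block 3 fell (21.4%, against 3.91% of all) and 0 rose, and these were fzd10.S, sfrp1.L and 1 of the 5 probe sets of fzd7.L. Taking only the brightest probe set of each gene, 2 of 9 genes fell. The median log2 difference over the 14 was -0.41, -0.33 in experiment 1 and -0.54 in experiment 2, beside 0.04 over all probe sets. Members that share a gene are not separate measurements, so these counts describe the family and are no test of it.

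**Figure D1:**
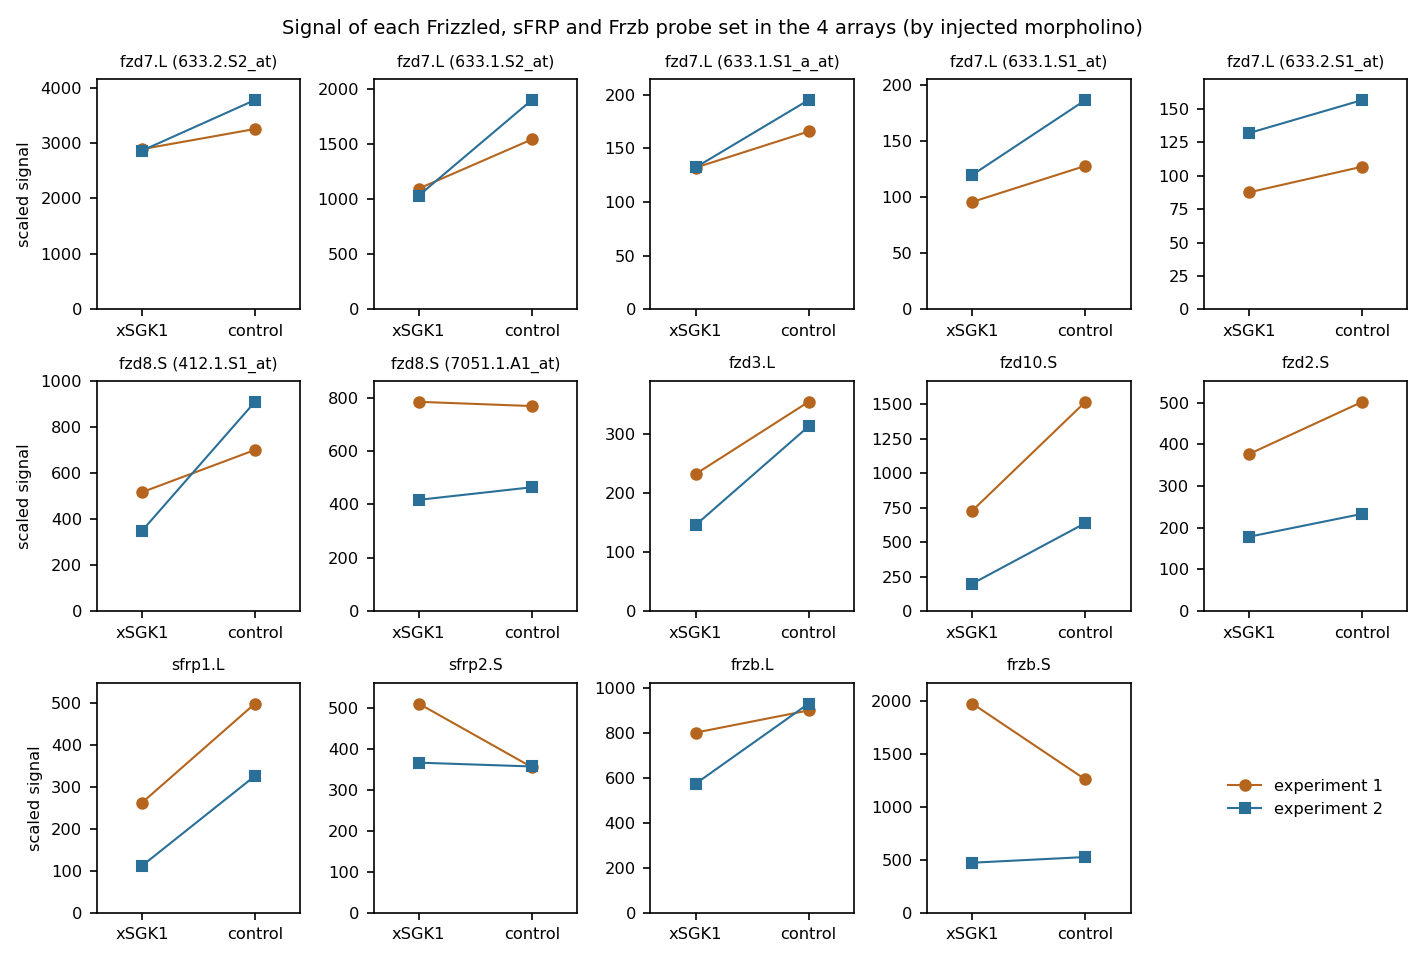
Scaled signal (vertical axes, arbitrary units, each starting at 0) of the 14 probe sets in the 4 arrays, with xSGK1 left of control and a line joining the 2 arrays of an experiment. Lines climb toward control in both experiments in 11 panels, and in 1 experiment or none for sfrp2.S, frzb.S and the second fzd8.S probe set.

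Among the receptors, fzd10.S changed most. fzd10 is a receptor known in Xenopus from dorsal neural tissue. Its signal was 729.9 and 199.6 in the xSGK1 arrays of experiments 1 and 2, against 1519.2 and 639.2 in the control arrays. Within each experiment the xSGK1 array was the lower one, 2.08-fold and 3.2-fold, but the groups overlapped, since xSGK1 embryos of experiment 1 stood above the controls of experiment 2. At least a 2-fold reduction in both experiments was shown by 1.47% of all probe sets tested and, among the 14 members, by fzd10.S alone. The log2 difference was -1.32 ± 0.19 (SE, limma with the block, adjusted p = 0.0242). It was the 81st lowest difference of the 9251. Leaving out 1 array in the fit without the block gave -2.22 (xSGK1 of experiment 1 left out), -1.94 (control of experiment 2), -0.71 (control of experiment 1) and -0.43 (xSGK1 of experiment 2).

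A second, dim fzd10.S probe set lay below the signal limit, and its signals were 41.3 and 7.8 in xSGK1 arrays, against 73.1 and 21.5 in controls. The order of its 4 arrays was that of the bright probe set. The homeologous copy fzd10.L gave 53.8 and 40.7 with the xSGK1 morpholinos, against 52.2 and 47.5 with the control. This probe set was dim throughout and its groups overlapped.

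The receptor fzd7, which in Xenopus serves both beta-catenin signalling and the convergent extension movements of gastrulation, was covered by 5 probe sets assigned to fzd7.L. Its probe set Xl.633.1.S2_at read 1094.0 and 1030.8 in xSGK1 embryos of experiments 1 and 2, against 1539.8 and 1897.0 in controls. The groups did not overlap, the reductions were 1.41-fold and 1.84-fold, and the probe set fell (log2 difference -0.68 ± 0.15 SE, limma adjusted p = 0.0477 with the block). It missed the threshold with quantile normalization (0.0649) and without the intensity trend (0.0787). The brightest, Xl.633.2.S2_at, read 2890.6 and 2863.0, against 3254.4 and 3777.3. Here too xSGK1 lay below control, by 1.13-fold and 1.32-fold, with a log2 difference of -0.28 ± 0.11 (SE, limma adjusted p = 0.15 with the block). The other 3 fzd7.L probe sets were dim, with means from 107.6 to 132.0 in xSGK1 embryos and from 131.7 to 180.2 in controls. Their log2 differences of -0.40, -0.47 and -0.23 did not pass. All 5 were lower in both experiments, and in 4 the groups did not overlap. Probe sets numbered 633.1 and 633.2 stem from different accessions, and the RefSeq table lists a second copy, fzd7.S, to which none is assigned. Transcripts of such copies can cross-hybridise.

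The 2 probe sets of fzd8.S gave different pictures. fzd8 encodes a receptor made in the organizer of the Xenopus gastrula. Probe set Xl.412.1.S1_at measured 517.5 and 349.1 in xSGK1 embryos of experiments 1 and 2, against 701.8 and 911.3 in controls. The groups were separate, by 1.36-fold and 2.61-fold within the experiments. The log2 difference was -0.89 (95% interval -1.47 to -0.31), and the limma adjusted p with the block was 0.0727. It passed with cyclic loess normalization (0.0151) and with an offset of 64 (0.0451) in place of 16.

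Probe set Xl.7051.1.A1_at of the same gene measured 783.9 and 416.7 in xSGK1 embryos, against 768.1 and 463.8 in controls. Its log2 difference was -0.06 (95% interval -0.43 to 0.31, limma adjusted p = 0.821 with the block). This probe set separated the experiments and not the injections. Mean signals over the 4 arrays were close, at 619.9 and 608.1, so choosing the brighter one to represent the gene decides what is read for fzd8.S. The homeolog fzd8.L was near the bottom of the scale, with 3.4 and 5.7 in xSGK1 arrays, against 16.7 and 31.6 in controls, or 4.91-fold and 5.54-fold lower at signals under the limit for testing.

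Of the other receptors, fzd3.L came close to the threshold. fzd3 is known in Xenopus from neural crest induction and eye formation. It measured 232.1 and 145.7 in the xSGK1 arrays of experiments 1 and 2, against 354.5 and 312.9 in the controls. Both xSGK1 arrays were below both controls, by 1.53-fold and 2.15-fold, and the log2 difference was -0.80 (95% interval -1.27 to -0.34, limma adjusted p = 0.0571 with the block). Cyclic loess normalization (0.0152) and an offset of 64 (0.0392) brought it past the threshold, and without the xSGK1 array of experiment 2 the difference, in the fit without the block, was -0.49. fzd2.S, a receptor whose rat counterpart is known from WNT calcium signalling, gave 376.7 and 178.3 with the xSGK1 morpholinos, against 501.7 and 233.1 with the control. The 2 experiments showed nearly equal reductions, 1.33-fold and 1.31-fold, yet differed so much in level that the groups overlapped. Its log2 difference of -0.38 (95% interval -0.78 to 0.02) did not pass (limma adjusted p = 0.183 with the block).

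Among the secreted antagonists, sfrp1.L fell. Its product, also known as FrzA, binds WNT ligands and blocks their signalling in Xenopus embryos. Signals were 262.8 and 112.2 in xSGK1 embryos of experiments 1 and 2, against 499.5 and 326.9 in controls. The groups did not overlap, and the reductions were 1.90-fold and 2.91-fold. The log2 difference was -1.15 ± 0.20 (SE, limma adjusted p = 0.0305 with the block). With 1 array left out of the fit without the block it was -1.71 (xSGK1 of experiment 1 left out), -1.45 (control of experiment 2), -0.86 (control of experiment 1) and -0.59 (xSGK1 of experiment 2). Every one of these 4 values was negative.

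The WNT antagonist sfrp2.S was the one member higher in both experiments. It gave 510.4 and 366.4 in xSGK1 arrays, against 355.5 and 357.1 in controls. The excess was 1.44-fold in experiment 1 and 1.03-fold in experiment 2, and the log2 difference of 0.27 (95% interval -0.18 to 0.72) did not pass (limma adjusted p = 0.364 with the block). Leaving out the xSGK1 array of experiment 1 gave 0.039, and leaving out that of experiment 2 gave 0.50.

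Frzb, the organizer-derived antagonist of WNT8, was covered by its 2 homeologs. frzb.L measured 803.1 and 575.3 in xSGK1 embryos, against 902.0 and 932.3 in controls, so the groups were apart. The log2 difference of -0.42 ± 0.17 (SE) did not pass (limma adjusted p = 0.169 with the block). It was -0.66 without the xSGK1 array of experiment 1 and -0.19 without that of experiment 2. frzb.S measured 1976.1 and 473.8 in xSGK1 embryos, against 1259.6 and 527.2 in controls. It was higher in experiment 1 (1.57-fold) and lower in experiment 2 (1.11-fold), with a log2 difference of 0.25 (95% interval -0.27 to 0.76, limma adjusted p = 0.469 with the block). With 1 array per injection in each experiment, whether such ratios differ between experiments cannot be tested.

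**Figure D2:**
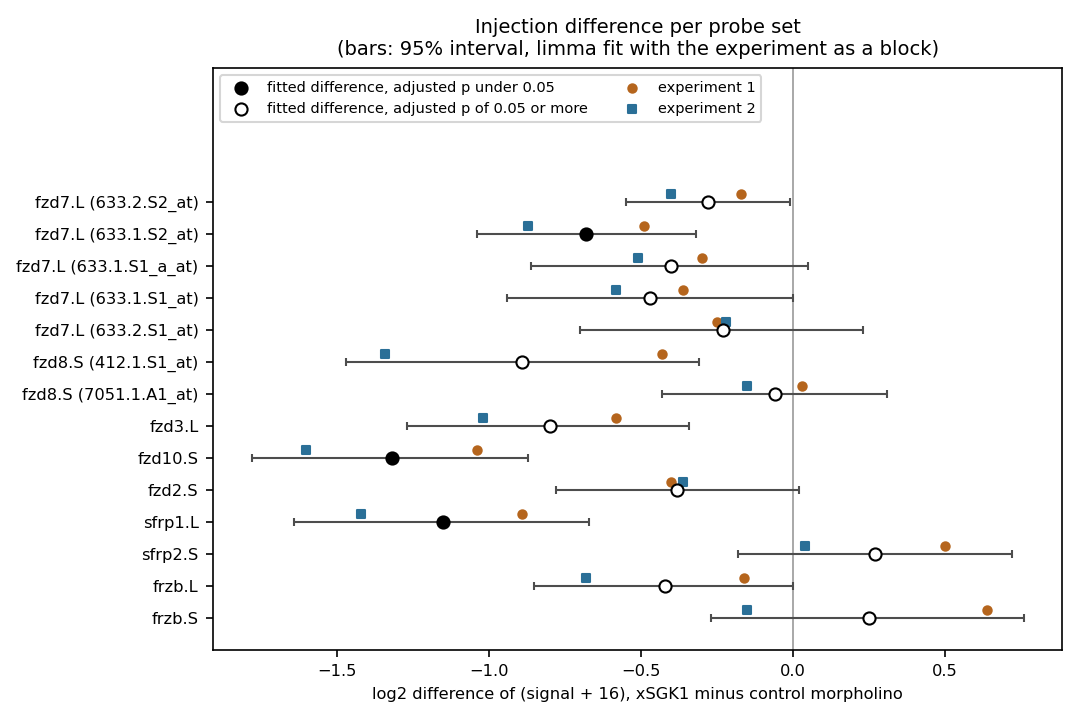
Log2 difference of (signal + 16), xSGK1 minus control morpholino, for the 14 probe sets. Large circles with bars are the fitted differences and their 95% intervals from limma with the experiment as a block, filled where the adjusted p was under 0.05, and small symbols are the 2 experiments. fzd10.S at -1.32, sfrp1.L at -1.15 and 1 fzd7.L probe set at -0.68 are filled.

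The remaining family genes were dim. frzb2.L, which encodes the organizer antagonist Crescent, was read by a pair of probe sets under the signal limit. The brighter gave 88.2 and 52.5 in xSGK1 arrays, against 97.5 and 120.9 in controls. The other gave 87.3 and 6.6, against 102.6 and 79.7. Both probe sets had their lowest signal in the xSGK1 array of experiment 2. Receptor genes fzd1.L, fzd4.S and fzd5.S and the antagonist gene sfrp5.L had mean signals over the 4 arrays of 17.0, 54.1, 38.0 and 26.8. No test was made below the limit.

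Several members differed between the experiments as well. With the injection kept as a term, limma called 5 of the 14 probe sets lower in experiment 2 and 0 higher, where 40.8% of all probe sets were called, 19.9% lower and 20.9% higher. Without the injection term 0 of the 14 passed. The shares over all probe sets belong to the fit with that term, and none is given here for the fit without it. The 5 called with the term were fzd10.S, frzb.S, fzd2.S, sfrp1.L and fzd8.S by the probe set Xl.7051.1.A1_at. For frzb.S the difference, experiment 2 minus experiment 1, was -1.63 ± 0.21 (SE, limma adjusted p = 0.0043). For fzd10.S it was -1.51 ± 0.19 (adjusted p = 0.0039) and for fzd2.S -1.04 ± 0.16 (adjusted p = 0.00645). sfrp1.L differed by -0.85 ± 0.20 (adjusted p = 0.0191) and the fzd8.S probe set by -0.80 ± 0.15 (adjusted p = 0.0106). For fzd10.S and sfrp1.L both differences point down. In all, 10 of the 14 members had their lowest signal in the xSGK1 array of experiment 2, as did 30.4% of all probe sets. The highest signal was in a control array for 11 of them, against 45.3% of all. The called fzd7.L probe set differed by 0.11 ± 0.15 between the experiments (adjusted p = 0.588).

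**Figure D3:**
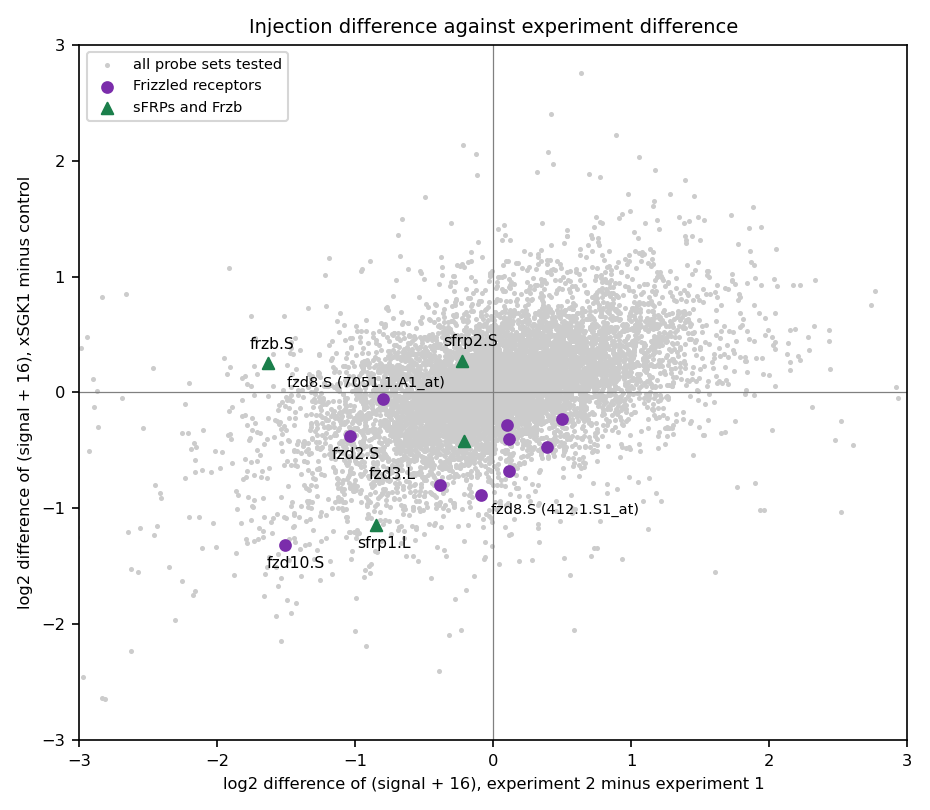
Injection difference (vertical axis, log2 of signal + 16, xSGK1 minus control) against experiment difference (horizontal axis, experiment 2 minus experiment 1), grey for all 9251 probe sets tested and coloured for the members. The 22 probe sets beyond 3 on either axis are not drawn. fzd10.S lies low on both axes at -1.32 and -1.51, frzb.S only on the horizontal one, and fzd8.S by Xl.412.1.S1_at only on the vertical one.

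The share of genes of the pathway around these receptors that fell was near that of all probe sets. Of 155 WNT pathway and target symbols outside the family's naming rule, 73 genes were tested (each homeolog counted as a gene, by its brightest probe set). With the block 3 of them fell (4.1%, against 3.91% of all probe sets) and 0 rose (against 4.09% of all), and without it 0 passed. The 3 were msgn1.L, cdx4.L and szl.L, the last encoding an inhibitor of Chordin-cleaving proteases. The median log2 difference of the 73 was -0.02. Of the 73, 27 (37.0%) were lower and 21 (28.8%) higher in both experiments, against 31.9% and 40.8% of all.

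Of 7 genes of WNT ligands, their acylation and export, 0 passed (against 8.00% of all probe sets). The ligand wnt11b.L, which drives convergent extension, read 1273.5 and 1938.7 in xSGK1 arrays, against 2125.0 and 2268.9 in controls (log2 difference -0.48, limma adjusted p = 0.105 with the block). The WNT acyltransferase gene porcn.L read 144.5 and 316.6, against 83.5 and 232.5 (0.56, adjusted p = 0.113). Among 7 genes of other receptors and cell-surface regulators 0 passed (against 8.00% of all probe sets). The nearest was the WNT5 receptor gene ror2.L with 923.1 and 673.2 in xSGK1 arrays, against 1115.0 and 1188.3 in controls (-0.54, adjusted p = 0.105). The polarity receptor gene ptk7.L gave 1934.7 and 1740.3, against 2133.0 and 2121.2 (-0.21, adjusted p = 0.276). Its homeolog ptk7.S went the other way, with 559.4 and 580.9, against 473.4 and 497.5 (0.23, adjusted p = 0.353).

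Of 4 genes of other secreted antagonists, 2 of them the Sizzled homeologs, 1 fell (25.0%, against 3.91% of all probe sets) and 0 rose (against 4.09% of all). The median log2 difference of the 4 was -0.86. The rest of the list was dkk1.S (-0.8) and cer1.S (0.01), which did not pass. The gene that fell was szl.L, which encodes Sizzled, a Frizzled-related protein that inhibits Chordin-cleaving proteases. Its signal was 139.0 and 33.7 in xSGK1 arrays of experiments 1 and 2, against 457.9 and 95.9 in controls (-1.39 ± 0.21 SE, adjusted p = 0.0264 with the block). The mean was 86.3 with the xSGK1 morpholinos and 276.9 with the control, so szl.L passed the signal limit only through the controls. Each xSGK1 array was below its own control, the groups overlapped, and like fzd10.S the gene also differed between the experiments, by -1.86 (adjusted p = 0.00354).

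Inside the cell 0 of 17 cytoplasmic, 0 of 12 nuclear and 0 of 14 planar polarity genes passed, where 8.00% of all probe sets did. At that share lists of this size would hold few calls, so counts of 0 say little. The nearest in these lists was csnk1a1.L, a kinase of the beta-catenin destruction complex, with 5085.0 and 4527.6 in xSGK1 arrays, against 6483.2 and 5875.0 in controls (-0.36, adjusted p = 0.0557). The ubiquitin ligase gene btrc.S, whose product marks beta-catenin for degradation, gave 436.2 and 481.7, against 297.7 and 352.1 (0.48, adjusted p = 0.108). A dimmer btrc.S probe set gave 123.1 and 119.7, against 60.7 and 120.4 (0.43, adjusted p = 0.319), and was thus level in experiment 2. The beta-catenin cofactor gene pygo2.S (-0.49) had an adjusted p of 0.23, whereas its homeolog pygo2.L (0.1, adjusted p = 0.706) was higher in both experiments. ctnnbl1.L (0.30), listed as a beta-catenin-like protein but known as a splicing factor, had an adjusted p of 0.233. In the polarity list camk2g.S, a calcium-dependent kinase, and daam1.S, a formin downstream of Dishevelled, were nearest, at 0.54 (adjusted p = 0.0932) and 0.55 (adjusted p = 0.101).

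Of 14 genes known as WNT targets 2 fell (14.3%, against 3.91% of all probe sets) and 0 rose (against 4.09% of all). The presomitic mesoderm factor gene msgn1.L read 569.3 and 208.3 in xSGK1 arrays of experiments 1 and 2, against 1108.2 and 452.3 in controls (-1.0 ± 0.15 SE, adjusted p = 0.0264 with the block). The caudal gene cdx4.L read 244.2 and 140.3, against 404.8 and 316.1 (-0.89 ± 0.19 SE, adjusted p = 0.042). Both were lower in xSGK1 embryos in each experiment, and for msgn1.L the groups overlapped. The list's median was -0.33, with 7 members lower and 0 higher in both experiments, against 31.9% and 40.8% of all. Among the 7, axin2.L was nearly level in experiment 1, at 696.5 against 697.9 in the control. The remaining targets differed in direction between the experiments. Of these, axin2.S, tbxt.S, ccnd1.L, ccnd1.S and pax3.S were lower in experiment 2 alone. Beyond WNT signals, other inputs act on these targets.

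**Figure D4:**
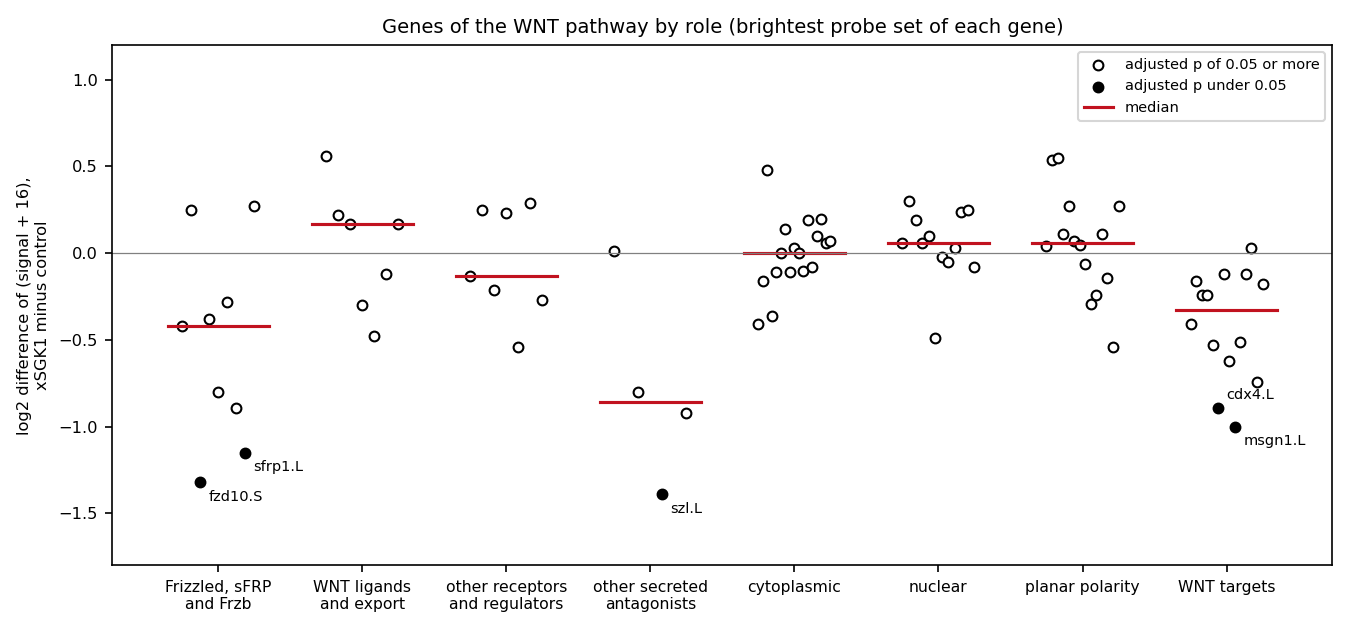
Log2 difference of (signal + 16), xSGK1 minus control (vertical axis), of each gene by its brightest probe set, for the family and 7 groups of other WNT pathway genes. Filled points had a limma adjusted p under 0.05 with the block and red bars are medians. The family's 9 genes have a median of -0.42. The other secreted antagonists have a lower median, -0.86, and the WNT targets one of -0.33. Medians are -0.13 for other receptors and 0.17 for ligands, and those of the cytoplasmic, nuclear and polarity groups lie within 0.06 of 0.

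Patterns over the 4 arrays were compared as a description, by the Euclidean distance between log2(signal + 16) values after each probe set's own mean was taken off. For fzd10.S, the nearest of 6166 other single-gene probe sets were eps8l1.L (distance 0.07), nek8.S (0.18) and XB5947741.L (0.20), where the median distance was 2.08. eps8l1.L read 339.3 and 87.0 in xSGK1 arrays, against 675.2 and 290.6 in controls. For sfrp1.L they were impa1 (0.14), polr2h.L (0.15) and six3.L (0.16), against a median of 1.55. six3.L, a homeobox gene of the anterior neural plate, read 95.3 and 32.2 in xSGK1 arrays, against 168.1 and 124.6 in controls. With an xSGK1 mean of 63.7, it passed the signal limit only through the controls. The same held for nek8.S and XB5947741.L, with xSGK1 means of 81.0 and 93.8. For fzd8.S by Xl.412.1.S1_at they were gpr160.L (0.19), rassf3.S (0.21) and MGC53707 (0.22), against a median of 1.18. With 4 arrays many probe sets share a pattern.

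Within the family, each gene being represented by its brightest probe set, the nearest gene to fzd10.S was sfrp1.L, at 0.68, and the nearest to fzd8.S was fzd3.L, at 0.40. Nearest to sfrp1.L was fzd3.L, at 0.58. The fzd10.S, sfrp1.L, fzd2.S and fzd3.L patterns peaked in the control array of experiment 1. Those of fzd8.S, fzd7.L and frzb.L peaked in the control array of experiment 2, and those of frzb.S and sfrp2.S in the xSGK1 array of experiment 1.

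**Figure D5:**
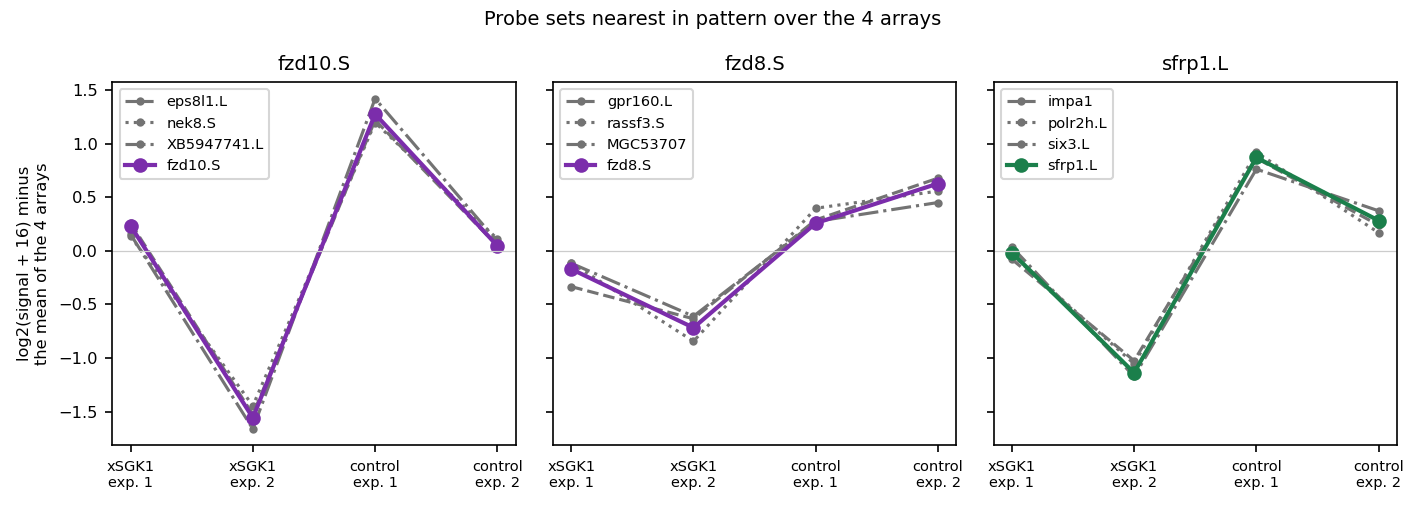
Log2(signal + 16) minus the mean of the 4 arrays (vertical axis) for fzd10.S, fzd8.S and sfrp1.L (thick lines) and the 3 nearest single-gene probe sets outside the family (grey lines), by array. All 3 members are lowest in the xSGK1 array of experiment 2, and fzd8.S alone of them is highest in the control array of experiment 2.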

How the data were processed

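The authors deposited 1 signal per probe set and array, a linear intensity from MAS5 in GCOS 1.4 (named in the submitters' processing notes), after labelling 100 ng of total RNA in a 2-cycle protocol per the labels' protocols. The 2% trimmed mean of each deposited column was 500.1 or 500.0. Signals were rescaled to 500 and taken as log2(signal + 16), and 120 control probe sets and those averaging under 100 were left out. Of 9304 probe sets with 1 gene symbol 9227, with all 23 of the family, were matched by gene identifier to RefSeq (Xenopus_laevis_v10.1). Coordinates are left out, as the array's build is not given in the sources used here.

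Limma 3.58.1 in R 4.3.3 (eBayes with an intensity trend, two-sided, Benjamini-Hochberg over 9251 probe sets) was run without a block, the planned main fit, and with the experiment as a block. The difference between experiments in control arrays followed that in xSGK1 arrays (Pearson 0.838 over probe sets, minimum asked 0.1), so both fits are given. The p-values rest on 2 experiments. The blocked fit leaves few degrees of freedom per probe set, so its SEs and intervals rest largely on the variance that limma shares over probe sets. Scripts were tested on simulated data. Every member, for each WNT list the genes past the threshold or else the nearest 2, and the 3 nearest patterns were named. Members and lists were chosen with earlier results of these data known. Alternatives were other offsets, filters, normalizations and variance models and each array left out. Figures used matplotlib 3.10.9.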

Additional observations from a re-analysis of the deposited data

How the results depend on the processing

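With the experiment as a replicate block, limma called 740 probe sets, 3 family members and 3 other WNT genes, against 0 of each without it. Under the block the 3 counts were 524, 2 and 2 with quantile normalization, 1531, 5 and 8 with cyclic loess, 827, 3 and 3 with an offset of 1, 1136, 5 and 5 with an offset of 64, 664, 3 and 3 without the signal limit, 490, 3 and 1 at a limit of 300, and 543, 2 and 2 without the intensity trend. The limit of 300 left 6266 probe sets, 10 family members and 56 WNT genes to test. With means of 276.3 and 181.6, cdx4.L and szl.L were not tested there. Counting every probe set gave 3 WNT calls, and leaving out the _x_at and _s_at probe sets gave 3 family and 3 WNT calls. fzd10.S and sfrp1.L were called in all 8 blocked fits, the fzd7.L probe set Xl.633.1.S2_at in 6 (not with quantile normalization or without the trend), and fzd8.S by Xl.412.1.S1_at in 2 of 8 and fzd3.L in 2 of 7, with cyclic loess and an offset of 64. The number of family members called between the experiments was 5 with the injection term and 0 without it, where no share over all probe sets is given. Leaving out 1 array was possible only without the block, with the lone array assumed to vary like the other group. It gave 0 to 110 calls over all probe sets, 0 to 1 in the family and 0 to 1 among WNT genes, the highest each time without the xSGK1 array of experiment 1, and a family median of -0.69 to -0.41. The sign then turned for fzd2.S (-0.91 to 0.15), fzd8.S by Xl.7051.1.A1_at (-0.50 to 0.38), frzb.S (-0.77 to 1.26) and fzd7.L by Xl.633.2.S1_at (-0.49 to 0.023). Without a change of sign, 2 further uncalled fzd7.L probe sets moved by over 1.5 times, Xl.633.1.S1_at to between -0.72 and -0.22 and Xl.633.2.S2_at to between -0.39 and -0.18. The cause of these changes was not tested. The 4 arrays limit the precision, and probe-level backgrounds were not used here.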

Other observations

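A further Frizzled-related gene, sfrpx.S, whose symbol lies outside the family's naming rule, averaged under the signal limit. It read 82.1 and 118.9 in the xSGK1 arrays of experiments 1 and 2, against 52.0 and 86.0 in the controls, and was thus higher with the xSGK1 morpholinos by 1.58-fold and 1.38-fold. No test was made of it. The second Sizzled copy, szl.S, gave 167.4 and 87.5 in xSGK1 arrays, against 434.5 and 135.4 in controls (log2 difference -0.92, limma adjusted p = 0.0651 with the experiment as a block).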
